A study of Mus musculus with 6 samples.

Results

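Neuronal splicing regulators are RNA-binding proteins that decide which exons a neuron keeps in its messenger RNAs. The genes described here are Rbfox1, Rbfox2, Rbfox3, Nova1, Nova2, Ptbp1, Ptbp2, Mbnl1, Mbnl2 and Srrm4. They were chosen by name, and all 10 were found among the 15939 genes of the deposited event catalogues, through the Ensembl gene ID that the annotation pairs with each symbol. RNA had been taken from the nucleus accumbens of C57BL/6N mice, a reward region of the ventral striatum, after conditioned place preference training, in which an animal learns to link a chamber with an injection. The morphine group received morphine injections (3 libraries, replicates 4, 5 and 6) and the saline group received saline injections (3 libraries, replicates 1, 2 and 3). Strain, tissue and training were shared by both groups. The design text gives 6 mice per group without saying how they were divided among the libraries, and the labels give no age, sex, dose or schedule, so p-values measure the spread between libraries only.

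Rbfox proteins bind the sequence TGCATG, with U for T in RNA, beside the exons they regulate, Nova proteins bind clusters of short pyrimidine-CA-pyrimidine motifs, Mbnl proteins bind GC-containing motifs with pyrimidines on either side, and Ptbp proteins bind pyrimidine-rich tracts, mostly as repressors. Srrm4 promotes the inclusion of very short neuronal exons. Ptbp1 is high in neural progenitors and glia and its close relative Ptbp2 replaces it in maturing neurons, while Rbfox3 is the antigen known as NeuN, a standard marker of neurons. Many of these genes control exons in their own transcripts or in those of their relatives. In tissue such as this, which holds neurons and glia together, events of a gene cannot be assigned to one cell type.

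Each library's file lists alternative transcription and splicing events of transcripts assembled from that library. The unit throughout is the distinct event, counted once per type, splice pattern and strand. It records which structures were assembled, not how much RNA there was, and depth is unknown. An event missing from a catalogue was not recorded there, which does not show that its exon was missing from the RNA. An exon is called skipped where a library listed a skipping event that spells out the exon, so that library had assembled a form with it. Such a listing does not mean that the library lost the exon, and its absence does not mean that the exon was kept. The libraries listed between 54641 and 58007 events in 14121 to 14791 genes, and each of 10 markers of medium spiny neurons, the main cells of this region, had events in every library. So did all 4 markers of astrocytes, of oligodendrocytes and of microglia, all 3 of the ependyma, and 2 of 3 for endothelium and for choroid plexus. The endothelial marker Cldn5 was in no library.

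The skipped exons of the members carry much of what the catalogues say about them, and several are shared between relatives. The sequences below are exons that GENCODE M21 (build GRCm38) annotates as wholly coding, read from its transcripts 5′ to 3′ on the strand of the gene. The first set is shown because the same 40-base exon lies in all 3 Rbfox genes, listed as skipped in Rbfox1 and Rbfox2 and with an alternative end in Rbfox3. Capitals mark the bases at which the 3 genes are not all alike.
Rbfox1 chr16:7363865-7363904: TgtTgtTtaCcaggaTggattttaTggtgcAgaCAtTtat
Rbfox2 chr15:77094451-77094490: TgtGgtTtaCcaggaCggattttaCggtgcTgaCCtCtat
Rbfox3 chr11:118496351-118496390: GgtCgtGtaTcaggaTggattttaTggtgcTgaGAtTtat
Rbfox1 and Rbfox2 share 34 of the 40 bases, Rbfox1 and Rbfox3 share 34, and Rbfox2 and Rbfox3 share 31. Rbfox2 lies on the minus strand, as does Rbfox3, and Rbfox1 on the plus strand.

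The Mbnl genes carry 3 alternative exons of equal length in both relatives, shown because their combinations differ between the genes and, in Mbnl1, between the groups. Capitals mark bases that differ between Mbnl1 and Mbnl2. Both genes lie on the plus strand.
Mbnl1 54-base exon, chr3:60614683-60614736: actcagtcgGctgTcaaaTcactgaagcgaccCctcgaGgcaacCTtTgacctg
Mbnl2 54-base exon, chr14:120395712-120395765: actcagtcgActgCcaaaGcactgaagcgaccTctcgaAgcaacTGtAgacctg
Mbnl1 36-base exon, chr3:60621423-60621458: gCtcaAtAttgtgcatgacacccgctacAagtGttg
Mbnl2 36-base exon, chr14:120403336-120403371: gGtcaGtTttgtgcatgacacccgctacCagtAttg
Mbnl1 95-base exon, chr3:60622146-60622240: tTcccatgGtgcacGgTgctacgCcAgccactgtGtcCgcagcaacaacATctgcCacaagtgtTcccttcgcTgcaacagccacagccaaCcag
Mbnl2 95-base exon, chr14:120404638-120404732: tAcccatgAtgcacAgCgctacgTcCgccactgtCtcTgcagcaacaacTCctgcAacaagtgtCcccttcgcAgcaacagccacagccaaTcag
The relatives share 46 of 54, 31 of 36 and 81 of 95 bases. The 36-base exon of both genes holds TGCATG, the Rbfox motif, at bases 12 to 17 counted from the 5′ end, inside a stretch with no capitals. Among the 72 annotated exons of 36 bases that the files list as singly skipped, 2 hold this motif (2.78%), and these are the Mbnl1 and Mbnl2 exons. The motif was searched on the transcript strand only, and a match is a description of the letters, not a shown binding site.

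Nova1 and the Ptbp pair are shown for exons known in mouse or human cells for control by the protein that the gene, or its relative, makes. In Nova1 the capitals mark the tetramer TCAT and its variants with C in place of either T or both, overlaps included, and in the Ptbp pair they mark bases that differ.
Nova1 72-base exon, chr12:46713498-46713569, minus strand: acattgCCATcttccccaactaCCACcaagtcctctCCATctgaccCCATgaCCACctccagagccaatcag
Ptbp1 34-base exon, chr10:79862014-79862047, plus strand: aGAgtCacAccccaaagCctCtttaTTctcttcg
Ptbp2 34-base exon, chr3:119724612-119724645, minus strand: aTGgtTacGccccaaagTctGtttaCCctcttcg
The Nova1 exon holds 5 of these tetramers. Among the 86 annotated, singly skipped exons of 72 bases in the files the median was 1 tetramer, 56 exons held at least 1, and 2 exons (2.33%), Nova1's included, held as many as 5. The Ptbp1 and Ptbp2 exons share 26 of 34 bases.

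Across the 6 libraries the members had 167 distinct events, and for no member did the counts of the morphine and saline libraries separate. The most richly catalogued were Mbnl1, with a mean of 14.7 events over all libraries, Ptbp1 with 12.8, Rbfox2 with 12.7 and Rbfox1 with 12.3, whose ranges overlapped. Rbfox1, at 10 to 20 events, lay wholly above the next gene, Mbnl2, at 6 to 8. Mbnl2 (mean 6.33), Ptbp2 (6.17), Rbfox3 (6) and Nova1 (5.83) overlapped in turn. Nova2 (2.83) and Srrm4 (2.17) had the fewest, and Srrm4's range of 2 to 3 overlapped Nova2's range of 2 to 5. These are numbers of structures, set beside very different gene models: GENCODE M21 gives 57 distinct exons for Mbnl1, 48 for Ptbp1 and 4 for Nova2.

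**Figure D1:**
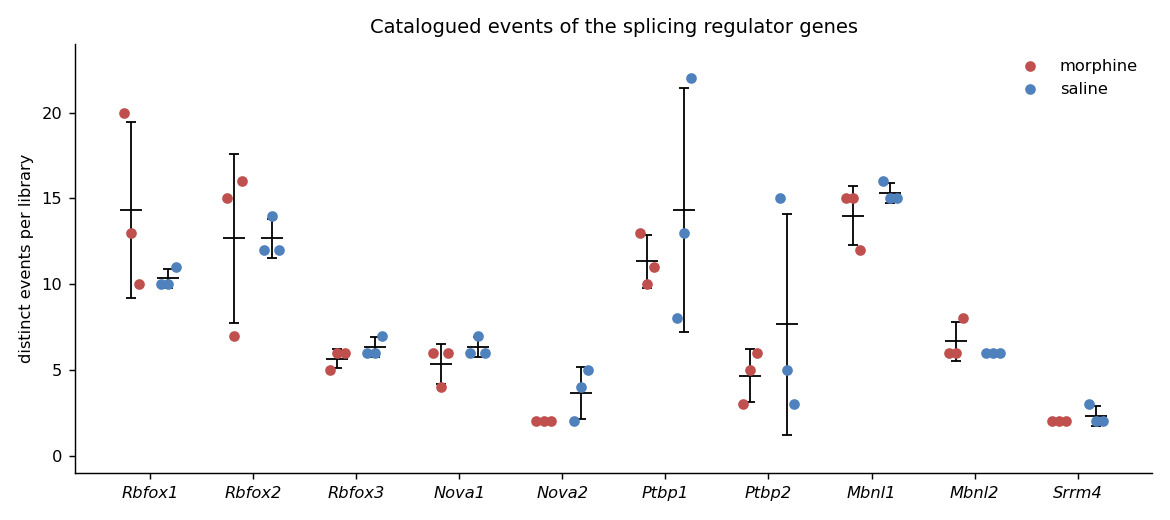
Distinct events per library (y axis) for each gene (x axis), with morphine libraries in red left of saline libraries in blue. Each point is a library, and the bars give the mean and SD of 3. In every gene the points of the groups overlap or touch. Single libraries stand off in Rbfox1 (20 in morphine replicate 4), Ptbp1 (22 in saline replicate 3) and Ptbp2 (15 in saline replicate 1).

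The comparison of morphine with saline asks which transcript structures differ after morphine conditioning. Of the members, 0 of 10 passed limma's test with an adjusted p under 0.05, fitted on the 15040 genes that averaged 0.5 or more events per library, where 0.638% of genes passed. At an unadjusted p under 0.05 the count was also 0 of 10, against 480 of all genes tested. The groups overlapped in all 10 members. Over all genes tested, 3.07% did not overlap, 1.64% with morphine wholly above saline and 1.43% with morphine wholly below it. Under limma with robust variance estimates 0 of 10 passed as well. The median log2 ratio of morphine over saline was -0.16 over the members and 0 over all genes tested, with 2 members above 0 and 8 below, against 4990 genes above and 5319 below. With first and last exons alone, 2 of the 8 (Ptbp1 and Ptbp2) lay above 0 and 3 (Rbfox2, Rbfox3 and Mbnl1) at 0. Summed over the members, the catalogues held 87, 70 and 79 events in morphine libraries and 84, 82 and 89 in saline libraries, so the groups overlapped. The difference of the means was -6.33 events, and it was -2 without morphine replicate 5 and -10.5 without morphine replicate 4. Event counts measure neither the transcripts of a gene per cell nor the number of cells that express it, and these cannot be told apart in this tissue. Summed events of the 3 ependyma markers numbered 13 to 16 in morphine and 17 to 24 in saline libraries, and those of the 3 choroid plexus markers 4 to 5 in morphine and 6 in each saline library, whose part in the members' values was not tested.

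Within the Rbfox family, Rbfox1 (chr16:5885355-7411526) had 20, 13 and 10 events in morphine libraries, against 10, 10 and 11 in saline libraries. Morphine replicate 4 alone stood high, and the groups overlapped at 10 (log2 ratio 0.40, SE 0.27, limma adjusted p = 0.91; exact two-sided permutation p = 0.4, n = 3 per group, for which 0.1 is the smallest possible). Without morphine replicate 4 the log2 ratio was 0.14. Rbfox2 (chr15:77078990-77307004) had 15, 7 and 16 events in morphine libraries, against 12, 14 and 12 in saline libraries. Its low value in morphine replicate 5 set the morphine mean, 12.7 ± 4.93, equal to that of saline, 12.7 ± 1.15 (SD, n = 3 each), and without it the log2 ratio was 0.28. Rbfox3 (chr11:118489762-118911597) had 5, 6 and 6 events in morphine libraries, against 6, 6 and 7 in saline libraries, which overlapped at 6 (log2 ratio -0.15, and -0.069 without morphine replicate 4 or -0.080 without saline replicate 3).

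Rbfox1 is a very long gene, and its catalogue is mostly one of first exons. It had 15 distinct first-exon splice sites spread over 1445 kb and 1 last-exon site, at 7409691, which all 6 libraries listed. Morphine libraries listed 9, 9 and 7 of the first exons and saline libraries 7 each. The 4 sites in all 6 libraries were 5885864, 7039200, 7040025 and 7150042. Of these the first alone is an annotated splice site, and the other 3 lie between 1153 and 1264 kb downstream of it. Another 5 sites were in 1 library each, 4 of them in morphine replicate 4. An annotated first exon ending at 6809248 was listed in 3 of 3 morphine and 1 of 3 saline libraries, and an unannotated one ending at 6840660 in 0 of 3 morphine and 2 of 3 saline libraries. Rbfox2 had 4 first exons, all annotated, of which those at 77153530, 77245490 and 77306364 were in all 6 libraries. Rbfox3 had 3, all annotated, with those at 118569551 and 118909304 in all 6.

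**Figure D2:**
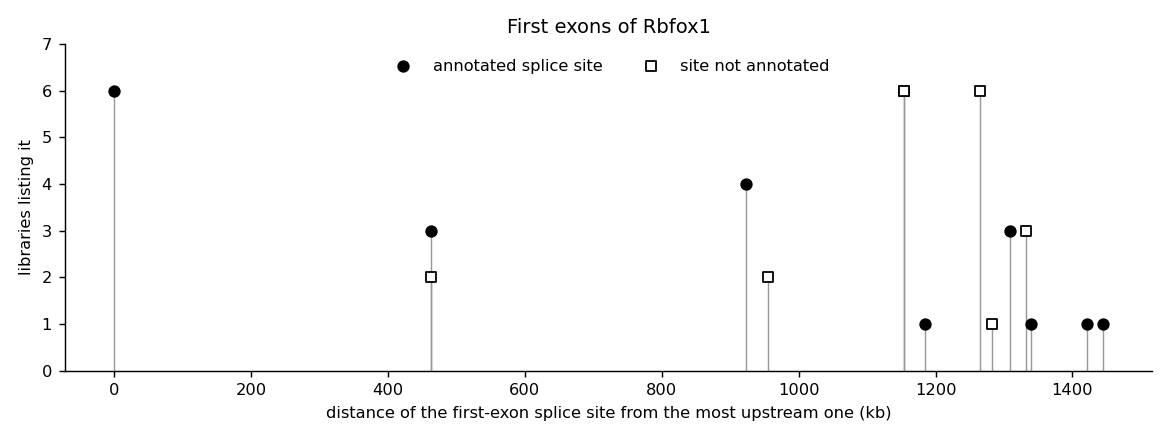
First exons of Rbfox1. The x axis gives the distance of each first-exon splice site from the most upstream one in kb, and the y axis the number of libraries, of 6, that listed it. Filled circles are annotated sites and open squares are not. The sites in all 6 libraries are the most upstream one and those at 1153, 1154 and 1264 kb, of which the pair at 1153 and 1154 kb overlaps in the plot.

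Each Rbfox gene had its own set of skipped exons. In Rbfox1 an 81-base coding exon (chr16:7330362-7330442) and a 53-base exon that GENCODE M21 does not annotate (chr16:7391988-7392040) were skipped in all 6 libraries. The 40-base exon of Rbfox1 was listed as skipped in 2 of 3 morphine libraries, replicates 4 and 5, and in 0 of 3 saline libraries. Its Rbfox2 counterpart was listed as skipped in all 6 libraries. In Rbfox3 the 40-base exon was listed in all 6 libraries with an alternative upstream end, as 40 or as 181 bases, and was not listed as skipped. The extra 141 bases are a multiple of 3, and both forms are annotated as coding. The long form is shown in full below to set out how it extends the shared exon, with the extra bases in capitals.
Rbfox3 chr11:118496351-118496531: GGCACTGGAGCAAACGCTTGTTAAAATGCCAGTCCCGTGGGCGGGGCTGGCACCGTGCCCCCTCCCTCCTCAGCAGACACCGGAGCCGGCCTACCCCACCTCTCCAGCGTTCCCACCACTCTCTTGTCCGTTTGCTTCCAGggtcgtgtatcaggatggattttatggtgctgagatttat
Rbfox2 further skipped a 51-base coding exon (chr15:77231387-77231437) and an unannotated 32-base exon (chr15:77089862-77089893), each in 2 of 3 morphine and 3 of 3 saline libraries, and both were missing from morphine replicate 5. A 43-base coding exon of Rbfox2 (chr15:77091812-77091854) was skipped in 1 of 3 morphine and 2 of 3 saline libraries. A 133-base exon of Rbfox2 (chr15:77097940-77098072) was listed in all 6 libraries beside a form that is 10 bases longer.

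One Rbfox3 event separated the groups. Skipping of a 40-base exon (chr11:118610159-118610198) between splice sites 118513404 and 118670649 was listed in 0 of 3 morphine and 3 of 3 saline libraries. This exon is annotated in 5 transcripts and carries no coding sequence, and it is not the 40-base coding exon shown above. Events listed in all libraries of one group and in none of the other numbered 3 of the members' 167, or 1.8%, against 0.665% of all 128790 events. By direction, 1 member event (0.599%) was listed in the 3 saline libraries alone, against 0.345% of all events, and the difference was not tested. No other Rbfox3 event names this exon, so whether morphine libraries kept or lost it is not recorded.

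The Nova pair held few events. Nova1 (chr12:46694517-46818929) had 6, 4 and 6 events in morphine libraries, against 6, 7 and 6 in saline libraries, overlapping at 6 (log2 ratio -0.25, SE 0.18, limma adjusted p = 0.91). Without morphine replicate 5, which had 4, the log2 ratio was -0.069. Its 72-base coding exon with the 5 pyrimidine-CA-pyrimidine tetramers was listed as skipped in all 6 libraries. An unannotated 102-base exon (chr12:46766290-46766391) was listed as skipped, and so assembled, in 1 of 3 morphine and 3 of 3 saline libraries. Morphine replicate 4, which did not list that skipping, listed a first exon with the same splice site, 46766290, that covers these bases. First exons at 46818040 and 46818616 were in all 6 libraries, and the last exon at 46700973 was in every library but morphine replicate 6, which listed one at 46720856 in its place. That library still listed the skipping of the 72-base exon out of the site at 46700973, so the site was assembled there too.

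Nova2 (chr7:18925888-18965319) had 2 events in each morphine library, against 2, 4 and 5 in saline libraries. Saline replicate 1 matched the morphine libraries, so the groups touched (log2 ratio -0.66, SE 0.32, limma adjusted p = 0.91; exact permutation p = 0.4, n = 3 per group), and without that library the log2 ratio was -0.99 with a limma adjusted p of 0.0635, while without saline replicate 3 it was -0.42. The 2 events found in every library were an annotated first exon ending at 18926164 and the last exon beginning at 18957536. The extra events were a first exon ending at 18942359 and skipping of an unannotated 83-base exon (chr7:18949515-18949597), both in saline replicates 2 and 3 and in 0 of 3 morphine libraries, with 1 more upstream first exon in saline replicate 3.

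In the Ptbp pair the libraries varied mainly in intron retention and alternative exon ends. Ptbp1 (chr10:79854427-79864771) had 13, 10 and 11 events in morphine libraries, against 8, 13 and 22 in saline libraries. Saline holds both the lowest and the highest value (log2 ratio -0.22, SE 0.40, limma adjusted p = 1), and the direction turns to 0.14 without saline replicate 3. Retention and alternative ends made up 7, 4 and 4 of the morphine counts and 4, 7 and 14 of the saline counts. The 22 events of saline replicate 3 came from 13 distinct splice patterns, because the same stretch of exon was listed under several type codes. All but one of the retained stretches of Ptbp1 lay between positions 79859522 and 79860447, around the 78-base coding exon at chr10:79860117-79860194, whose skipping was listed in all 6 libraries.

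The 78-base exon of Ptbp1 is known to alter the strength of the protein as a splicing repressor in human and mouse cells, and it is shown because it was the one Ptbp1 exon skipped in every library.
Ptbp1 78-base exon, plus strand: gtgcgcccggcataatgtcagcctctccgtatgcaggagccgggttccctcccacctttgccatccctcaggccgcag
An unannotated 56-base exon just downstream of it (chr10:79860447-79860502) was skipped in 2 of 3 morphine libraries, replicates 5 and 6, and in 2 of 3 saline libraries, replicates 2 and 3. The 34-base exon of Ptbp1, whose loss is known to send the transcript to nonsense-mediated decay, was listed as skipped in morphine replicate 4 alone. GENCODE M21 annotates 2 transcripts that skip it, both as decay targets. The 401-base intron that follows this exon was listed as retained in 0 of 3 morphine and 2 of 3 saline libraries.

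Ptbp2 (chr3:119718742-119784466) had 3, 5 and 6 events in morphine libraries, against 15, 5 and 3 in saline libraries. Saline replicate 1 alone stood high (log2 ratio -0.42, SE 0.65, limma adjusted p = 1), and without it the log2 ratio was 0.19. The 15 events of saline replicate 1 came from 10 distinct splice patterns, because the same stretch was listed under several type codes. Of these events, 6 were retained introns and 6 were alternative exon ends. In the morphine libraries these classes together held 0, 1 and 3 events, and in the other saline libraries 2 and 0. The remaining events numbered 3, 4 and 3 in morphine libraries and 3 in each saline library. Saline replicate 1 also listed the most retention events of the saline libraries over all genes, 7425 against 5074 and 5010, but morphine replicate 4, with 7523, had 0 for Ptbp2. The part of this in the Ptbp2 value was not tested.

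The 34-base exon of Ptbp2 is the counterpart of the Ptbp1 exon, and Ptbp1 protein is known to suppress it in cells that are not neurons. Skipping of it was listed in 0 of 6 libraries, and 2 of the 3 annotated transcripts that lack it are decay targets. It appeared as part of longer retained stretches in saline replicate 1 alone, one of which joined it over an intron of 425 bases to the exon beginning at 119724094. All 6 libraries listed one first exon for Ptbp2, at 119783202, and a pair of last-exon sites 3 bases apart, at 119720457 and 119720460. A coding exon at chr3:119726066-119726205 was listed with a form 15 bases longer in 1 of 3 morphine and 2 of 3 saline libraries.

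**Figure D3:**
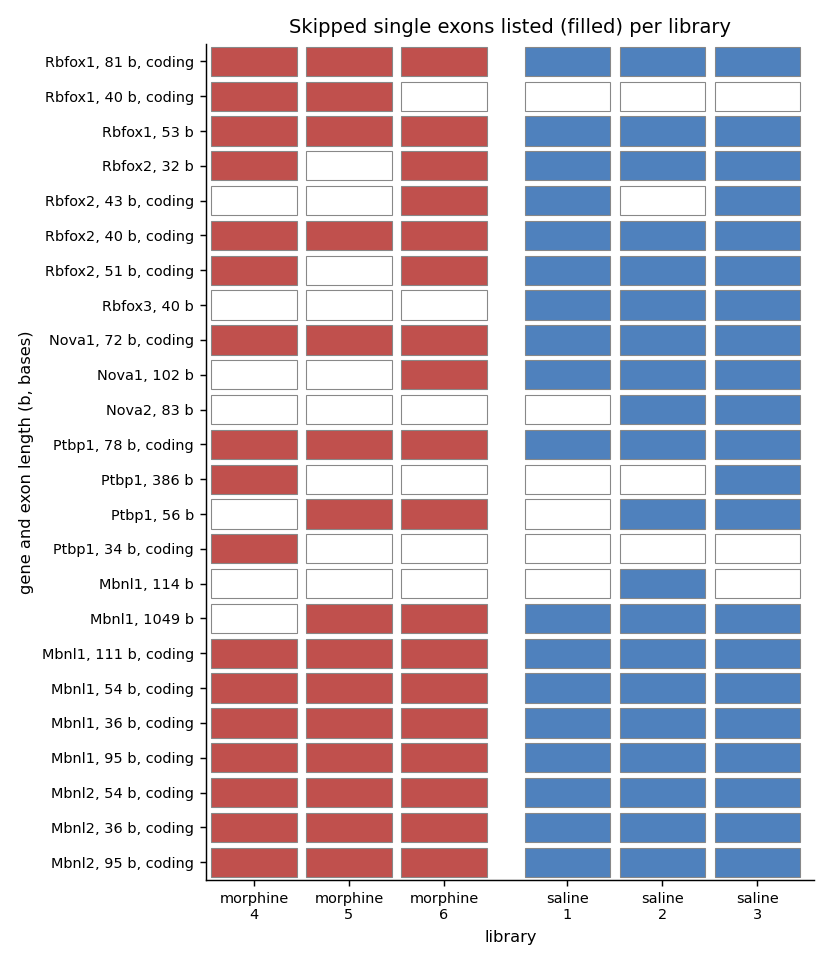
Single exons of the member genes listed as skipped, one per row with its length in bases, by library (columns, morphine left and saline right). A filled cell means that the library listed the skipping, and "coding" marks exons annotated as wholly coding. Of 24 exons, 12 are filled in all 6 libraries, among them every 54-, 36- and 95-base exon of Mbnl1 and Mbnl2, and the 40-base Rbfox3 exon is filled in the 3 saline libraries alone.

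The Mbnl genes, whose proteins drive the switch from fetal to adult exons, had similar counts in both groups. Mbnl1 (chr3:60472830-60629750) had 15, 15 and 12 events in morphine libraries, against 16, 15 and 15 in saline libraries, overlapping at 15 (log2 ratio -0.13, SE 0.10, limma adjusted p = 0.91). Without morphine replicate 6, which had 12, the log2 ratio was -0.030. Mbnl2 (chr14:120275669-120431697) had 6, 6 and 8 events in morphine libraries and 6 in each saline library (log2 ratio 0.13, SE 0.13, limma adjusted p = 0.91), and without morphine replicate 6 the log2 ratio was 0. Skipping of the 54-base exon, which is known to steer Mbnl proteins towards the nucleus, was listed in all 6 libraries for both genes. Mbnl1 also skipped a 111-base coding exon (chr3:60596719-60596829) in all 6 libraries.

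The 36- and 95-base exons lie next to each other, and the events show which combinations were assembled. In Mbnl1 the exons flanking the pair end at 60615773 and begin at 60625124. All 6 libraries held forms with both exons and with neither. A form with the 36-base exon alone was listed in 2 of 3 morphine and 3 of 3 saline libraries, missing from morphine replicate 5. A form with the 95-base exon alone was listed in 3 of 3 morphine and 0 of 3 saline libraries. It gave 2 of the members' 3 group-separating events, both from this one structure: skipping of the 36-base exon before the 95-base exon, and use of the 95-base exon alone between the flanking exons. Events found in the 3 morphine libraries alone were 1.2% of the members' events and 0.321% of those of all genes, and the difference was not tested.

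Mbnl2 had another set of forms. Between its flanking sites at 120396604 and 120428935, forms with both exons, with neither and with the 95-base exon alone were present in all 6 libraries. The form with the 36-base exon alone was listed in morphine replicate 6 and in 0 of 3 saline libraries. The 95-base form that was listed in the morphine libraries alone for Mbnl1 was thus in every library for Mbnl2.

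**Figure D4:**
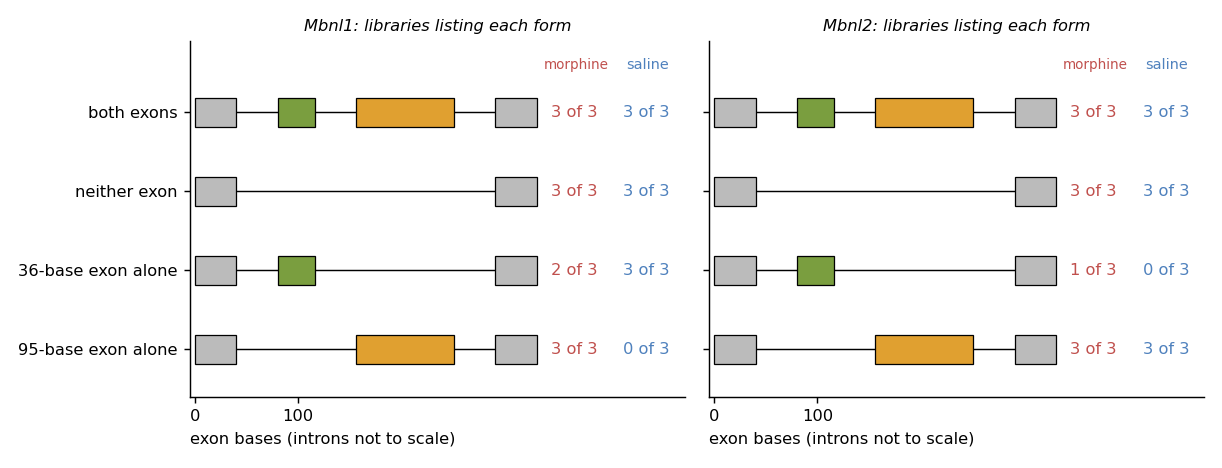
Combinations of the 36-base (green) and 95-base (orange) exons of Mbnl1 (left) and Mbnl2 (right) with the number of morphine and saline libraries that listed each. The x axis gives the length of these exons in bases. Flanking exons (grey) are cut short and introns are not to scale. The form with the 95-base exon alone is in 3 of 3 morphine and 0 of 3 saline libraries for Mbnl1 and in all 6 for Mbnl2.

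Mbnl1 had 5 first exons, all annotated, of which those at 60473173 and 60501423 were in all 6 libraries. Its usual last exon, beginning at 60626380, was in every library but saline replicate 2, which listed one at 60613263. Saline replicate 2 still listed forms with and without the 36- and 95-base exons, between 60615773 and 60625124. Structures downstream of 60613263 were thus assembled there too. For Mbnl2, the first exon at 120275905 and the last exon at 120428935 were in every library but saline replicate 3. That library listed a first and a last exon on the opposite strand in their place, at 120430460 and 120429240, while it still listed 4 skipping events on the strand of the gene. Over all genes with an annotated strand, 3.37% of first-exon events lay opposite to it.

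Srrm4 (chr5:116439275-116591817), the microexon activator, had 2 events in each morphine library, against 3, 2 and 2 in saline libraries, overlapping at 2 (log2 ratio -0.16, and 0 without saline replicate 1). All 6 libraries listed a first exon at 116591334 and a last exon at 116444874, and saline replicate 1 added an unannotated first exon at 116590071. No skipping, retention or alternative exon end was listed for it in any library.

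Pooled over the members, exon skipping made up 23.4% of events, against 10.5% over all genes, and last exons 10.2% against 24.1%. Not every member shared this, since Ptbp2 and Srrm4 had 0 skipping events. Mbnl1, Ptbp1, Rbfox2, Mbnl2 and Rbfox1 gave 12, 6, 6, 6 and 5 of the 39 skipping events. In the same order, these genes had more events than 98.4%, 97.6%, 97.5%, 87.2% and 97.4% of genes tested, while Srrm4 had more than 31.6%. Class shares were not compared among genes of like event number. The members' 24 singly skipped exons had a median length of 55 bases, against 102 over the 8445 exons of all genes. Of the 24, 12 (50%) were listed in all 6 libraries, against 24.7%. Of the 24, 11 (45.8%) were multiples of 3 bases, against 52.2%. An event counted as annotated if its first- or last-exon splice site, or every whole exon it spells out, was annotated for the gene. Such events were 56.9% of the members' and 63.6% of all genes' events. The members varied widely: 24 of 28 events counted as annotated in Mbnl1, 7 of 8 in Rbfox3 and 8 of 10 in Mbnl2, but 15 of 36 in Ptbp1, 12 of 27 in Rbfox1, 11 of 24 in Rbfox2 and 8 of 17 in Ptbp2. A retained stretch is spelled out as a single exon. Only 2.94% of the members' retention events and 6.23% of all genes' counted as annotated, whatever their boundaries. None of the 34 retention events of the members was in all 6 libraries, and 29 (85.3%) were in 1 library, against 70.7% of retention events over all genes. Of the 34, 15 were in Ptbp1 and 7 in Ptbp2, and Nova1, Nova2, Mbnl2 and Srrm4 had none. The members are few, several are relatives, and these shares are descriptions without a test.

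**Figure D5:**
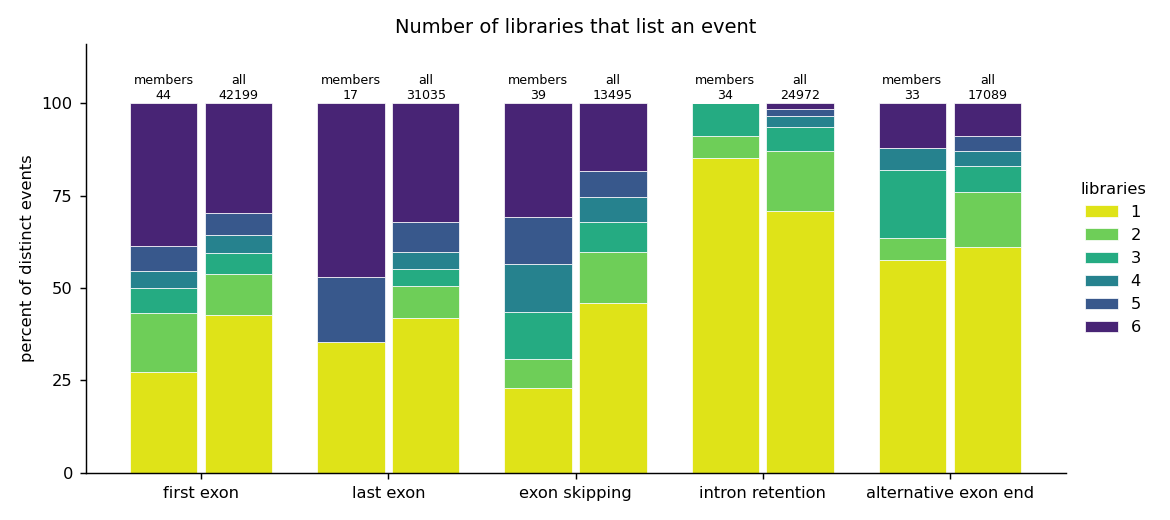
Percent of distinct events (y axis) listed in 1 to 6 libraries (colours), by event class (x axis), for the 10 members (left bar of each pair) and all genes (right bar), with the number of events above each bar. Among skipping events, 30.8% of the members' and 18.3% of all genes' were in 6 libraries, and among retention events 0% and 1.51%.

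Beyond the members, 23 related RNA-binding regulators were followed, of which 20 were tested. None passed limma's adjusted threshold, against 0.638% of all genes tested. An unadjusted limma p under 0.05 was found for 3, against 480 of the 15040 genes tested. In 4 of the 20 the groups did not overlap, against 3.07% of all genes tested, and the median log2 ratio of the list was 0. Celf5 had 9, 14 and 11 events in morphine libraries, against 7, 6 and 7 in saline libraries (log2 ratio 0.71, limma adjusted p = 0.91). Celf6, of the same CUG-binding family, had 5, 10 and 4, against 3 in each saline library (log2 ratio 0.87, limma adjusted p = 0.91). Elavl4, which encodes the neuronal RNA stabilizer HuD, had 5, 6 and 5 events in morphine libraries, against 8, 9 and 8 in saline libraries (log2 ratio -0.60, limma adjusted p = 0.30; exact permutation p = 0.1, n = 3 per group). Khdrbs2, which encodes the splicing factor SLM1, had 3, 2 and 2, against 5 in each saline library (log2 ratio -0.98, limma adjusted p = 0.28; exact permutation p = 0.1, n = 3 per group). With 3 libraries per group, any gene whose groups do not overlap has an exact permutation p of 0.1, so that p adds nothing to the non-overlap. Elavl4 and Khdrbs2 also did not overlap with annotated events alone, while Celf5 and Celf6 did, and with first and last exons alone all 4 overlapped.

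Among 18 genes whose exons these regulators are known to control, 0 passed limma's adjusted threshold. An unadjusted limma p under 0.05 was found for 0, against 480 of the 15040 genes tested. In 2 the groups did not overlap, against 3.07% of all genes tested. The median log2 ratio of this list was -0.03. The counts below take in all events of a gene, and the exons under control of the regulators were not examined. Unc13b, a vesicle priming gene with an Srrm4-dependent microexon, had 7, 10 and 12 events in morphine libraries, against 22, 13 and 15 in saline libraries (log2 ratio -0.75, limma adjusted p = 0.91). Cacna1d, an L-type calcium channel gene with exons controlled by Mbnl2, had 23, 24 and 26 events in morphine libraries, against 19, 9 and 19 in saline libraries (log2 ratio 0.69, limma adjusted p = 0.91). With annotated events alone Unc13b still did not overlap and Cacna1d did, and with first and last exons alone both overlapped. The other 16 genes overlapped, among them Src, with 5, 5 and 3 events in morphine libraries and 3, 6 and 10 in saline libraries, and Dlg4, with 6, 8 and 8 in morphine libraries and 7, 8 and 8 in saline libraries, both of which carry exons that Ptbp proteins repress.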

How the data were processed

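Total RNA libraries were sequenced and transcripts assembled by the authors, per the labels' design text. No label names the assembler, event caller or genome build. The deposited files list events with 20 type codes. Their column headed fpkm holds whole numbers from -24 to 0 and was not used. Codes ending in OFF were left out of the main event counts, and the remaining codes were grouped into 5 classes. Apart from the alternative that counted them, OFF codes served only for the Mbnl1 and Mbnl2 forms with neither exon. GENCODE M21 (GRCm38) held 15815 of 15939 gene IDs. For 63.6% of the 128790 events, the first- or last-exon splice site, or every whole exon spelled out, is annotated in it for the same gene. Coordinates are therefore read on that build. Limma 3.58.1 (R 4.3.3; lmFit, eBayes with trend, Benjamini-Hochberg) was fitted to log2(events + 0.5) and tested on simulated data. Of its 96 calls, 87 had identical counts within each group. In the simulated data, changes were placed only in genes with many events. The simulation thus does not show whether limma can call genes with few, such as Nova2 and Srrm4. Each member was also compared by an exact two-sided permutation test (scipy 1.17.1). All 10 members were named whatever their values, and from the lists of related regulators and of targets those called or not overlapping, with Src and Dlg4 added after their values were seen. Members and lists were chosen with earlier results of these data known. Depth is unknown, so no interval or detection limit was computed. Alternatives were the pseudocount, filter, scaling, variance model, event classes and leaving out each library.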

Additional observations from a re-analysis of the deposited data

How the results depend on the processing

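In all 19 alternatives 0 of 10 members passed limma's adjusted threshold; the lowest adjusted p was 0.0635, for Nova2 without saline replicate 1. Of 190 member ratios, 175 kept their direction, 7 became 0 and 8 turned. Those that turned had log2 ratios, with first and last exons only, of 0.12 for Ptbp1 and 0.12 for Ptbp2; without intron retention and alternative exon ends, of 0.12 for both and 0.037 for Mbnl1. When a library was left out, the ratio ranged from -0.28 to 0.28 for Rbfox2 (highest without morphine replicate 5), from -0.88 to 0.19 for Ptbp2 (highest without saline replicate 1) and from -0.57 to 0.14 for Ptbp1 (highest without saline replicate 3). The cause was not tested. The summed events of the members, morphine minus saline, was -6.33. It was 0.333 with first and last exons only, -0.333 with annotated events only, -0.667 without retention and alternative ends, -12 with OFF codes counted, and -10.5 (without morphine replicate 4) to -2 (without morphine replicate 5) when a library was left out.

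Over all genes, limma's 96 calls became 44 with robust variance and 250 to 285 when a library was left out. The 462 non-overlapping genes became 818 with equal totals, which breaks ties between whole numbers, 256 with first and last exons only, and 961 to 1102 when a library was left out, since fewer libraries overlap less often. Among members this count, 0, lay between 0 and 1 when a library was left out: Rbfox2 without morphine replicate 5, Rbfox1 without morphine replicate 6 and Nova2 without saline replicate 1. The 857 events of one group alone became 430 with first and last exons only, 536 without retention and alternative ends, 552 with annotated events only and 2237 to 2388 when a library was left out. The members' 3 became 0 with first and last exons only, 5 with OFF codes counted, and 3 to 6 when a library was left out (5 without morphine replicate 6, 6 without saline replicate 1 or 3). Leaving out the approximate type codes was chosen after seeing the data and changed no member's direction. No paired analysis was possible because the groups share no replicate number. Read depth, which is unknown, limits which events could be listed.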
